A study of Mus musculus with 12 samples.

Results

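Interneuron subtype markers are the transcripts by which the inhibitory neurons of the cortex are told apart. The 10 described here, Pvalb, Sst, Vip, Npy, Reln, Cck, Calb2, Nos1, Htr3a and Crh, were taken by symbol from a table of 24062 gene symbols, and all 10 were among the 15440 genes with enough counts to be tested. RNA came from the cortex of 9-month-old mice of 4 genotypes, with 3 libraries in each (the methods give 3 samples a genotype). WT mice carried neither alteration. Tia1+/- mice carried 1 allele of Tia1, a gene for an RNA binding protein of stress granules, that makes no TIA1 protein. PS19 mice carried human tau with the P301S mutation, expressed from the Prnp promoter, and P301S Tia1+/- mice carried both. By the study's methods the tau mice with and without the Tia1 allele were bred as littermates, and animals with end-stage or neuromuscular signs had been left out.

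Cortical interneurons release GABA and fall into classes that mature from separate embryonic zones. Cells that express parvalbumin or somatostatin come from the medial ganglionic eminence and act on the cell body or the dendrites of pyramidal cells. Cells with Vip, reelin or the serotonin receptor 3A come largely from the caudal ganglionic eminence, and many Vip cells inhibit other interneurons. Several of the 10 genes are not private to these cells: pyramidal cells express Cck, while calretinin (Calb2) and reelin are also made by neurons of the olfactory bulb.

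Promoter sequences from RefSeq (GRCm38.p6, from 250 bases before to 50 after the start) were matched to 7 of the 10 members in the table used here: Pvalb, Sst, Vip, Npy, Reln, Cck and Nos1. Pvalb, Sst and Vip are shown because they were lower in the P301S Tia1+/- than in the PS19 libraries, and Reln because it was higher there. The windows lie at chr15:78206351-78206650 (minus strand) for Pvalb, chr16:23890795-23891094 (minus strand) for Sst, chr10:5638968-5639267 (plus strand) for Vip and chr5:22344656-22344955 (minus strand) for Reln. Pvalb had another window, at chr15:78204188-78204487 (minus strand), which is not shown. It was 67.7% G and C, against 58.3% in the Pvalb window shown. Capitals mark the letters TGACGTCA, the cyclic AMP response element, or TATAAA, the TATA box, each searched on both strands.
Pvalb: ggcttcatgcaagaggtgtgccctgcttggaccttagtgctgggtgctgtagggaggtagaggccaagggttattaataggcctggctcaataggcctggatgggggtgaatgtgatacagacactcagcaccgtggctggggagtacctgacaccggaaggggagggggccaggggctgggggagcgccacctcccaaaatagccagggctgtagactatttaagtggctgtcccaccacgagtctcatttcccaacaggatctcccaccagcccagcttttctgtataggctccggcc
Sst: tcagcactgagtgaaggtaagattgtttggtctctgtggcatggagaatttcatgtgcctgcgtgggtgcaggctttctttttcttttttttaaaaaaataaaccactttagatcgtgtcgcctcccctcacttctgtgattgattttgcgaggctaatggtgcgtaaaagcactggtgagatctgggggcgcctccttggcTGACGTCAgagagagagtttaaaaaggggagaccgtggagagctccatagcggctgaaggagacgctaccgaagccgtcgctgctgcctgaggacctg
Vip: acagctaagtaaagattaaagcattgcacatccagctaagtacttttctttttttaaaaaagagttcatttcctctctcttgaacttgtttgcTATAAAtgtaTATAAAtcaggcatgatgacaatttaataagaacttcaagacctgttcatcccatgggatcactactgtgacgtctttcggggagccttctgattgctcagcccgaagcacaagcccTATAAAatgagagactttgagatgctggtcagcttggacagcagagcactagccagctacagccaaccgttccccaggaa
Reln: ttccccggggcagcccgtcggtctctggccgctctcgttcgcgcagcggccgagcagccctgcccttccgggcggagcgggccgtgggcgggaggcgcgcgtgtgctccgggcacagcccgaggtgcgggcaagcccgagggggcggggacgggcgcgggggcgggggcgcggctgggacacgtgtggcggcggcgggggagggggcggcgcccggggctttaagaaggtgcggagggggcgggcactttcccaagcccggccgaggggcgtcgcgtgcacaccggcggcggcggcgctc
TGACGTCA was in the Sst window and in none of the other 7 windows of members, and in 1.79% of all 32851 promoters of this length. TATAAA was found 3 times in the Vip window alone, and in 13.6% of all promoters. The Reln window was 80.7% G and C, above 99.2% of all promoters, and that of Vip 41.7%, against a median of 52.7%. Calb2 (chr8:110137502-110168210, minus strand), Htr3a (chr9:48899213-48911099, minus strand) and Crh (chr3:19693401-19695396, minus strand) are named only. All 10 members are protein-coding genes in GENCODE M21. These matches describe letters in a window and say nothing of the use of the sites.

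Total counts ran from 11978962 to 19146484 per library. Tia1 itself had between 75.4 and 93.8 CPM (counts per 1000000 counts of the tested genes, after TMM scaling) in WT, 61.4 to 79.8 in Tia1+/-, 70.8 to 77.9 in PS19 and 72.6 to 77.8 in P301S Tia1+/- libraries, so its RNA level did not separate the genotypes and the groups follow the library titles. In the deposited genotype entries, which were not followed, the labels of Tia1+/- and of P301S Tia1+/- are exchanged relative to the titles. Xist had 217 to 367 CPM in the 6 libraries titled with Tia1+/- and at most 0.783 CPM in the other 6, and the 4 Y-linked genes of the list had at most 3 counts in the first 6. All 5 sex-linked genes passed the test in both comparisons of Tia1 genotype, so a difference by Tia1 genotype and one by this pattern cannot be told apart, although the methods give male mice.

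The libraries also differed in RNA of other regions. The 9 olfactory bulb genes summed to 666 to 812 CPM in the 3 P301S Tia1+/- libraries and 1060 CPM in WT replicate 1, against 27.8 to 36.3 CPM in the 3 PS19 libraries. The other WT libraries had 171 and 59.5 CPM, and the Tia1+/- libraries 29.7, 31.1 and 143 CPM. The 10 striatal genes summed to 2607 CPM in Tia1+/- replicate 3 and to between 207 and 436 CPM in the other 11. Genes of cortical projection neurons summed to 451 CPM in Tia1+/- replicate 3, 650 CPM in WT replicate 1 and 824 to 1379 CPM elsewhere, and Slc17a7, their glutamate transporter, had 298 to 849.5 CPM over the libraries. WT replicate 1 and Tia1+/- replicate 3 thus stood apart, and each result is given with all 12 libraries and with the 10 that remain without these 2, a choice made after seeing the data. In the 10, the high bulb genes fall on the P301S Tia1+/- group alone, so that this level and the genotype cannot be told apart. Some fits over 12 libraries take the bulb level, the mean log2 CPM of the bulb genes, as a term. Within groups it ran from 2.11 to 6.32 in WT and from -0.040 to 2.85 in Tia1+/- libraries. It ran only from -0.19 to 0.54 in PS19 and from 5.54 to 5.94 in P301S Tia1+/- libraries. The slope of that term thus rests mainly on the WT and Tia1+/- libraries, with WT replicate 1 and Tia1+/- replicate 3 furthest out.

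**Figure D1:**
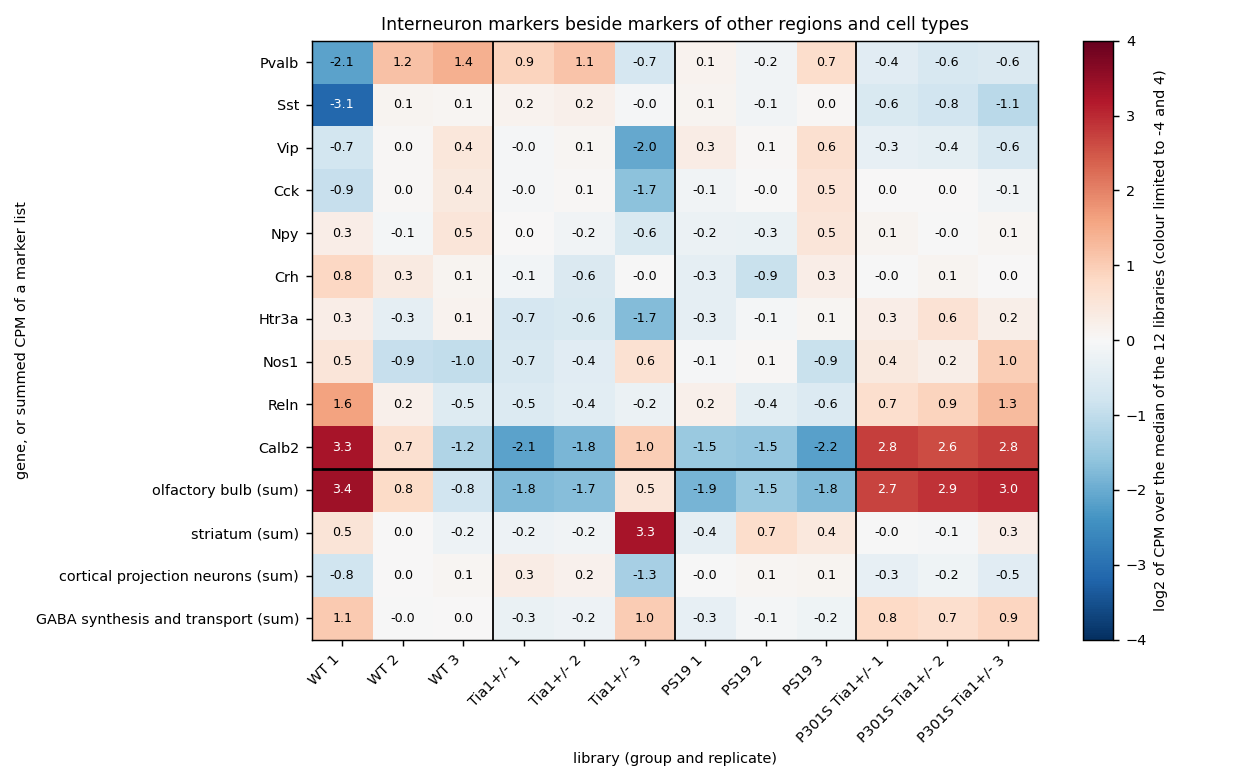
Level of the 10 members and of 4 marker lists in each library, as the log2 of CPM over the median of the 12 libraries (list rows use the summed CPM). Rows are genes or lists, columns are libraries, red is above and blue below the median. Calb2 and Reln share their high libraries with the olfactory bulb row, and Sst and Pvalb are low where that row is high.

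All 10 members varied more between libraries than most genes did: the ratio of the highest to the lowest library ran from 2.15 for Npy to 45.03 for Calb2, against a median of 1.77 over all genes tested. The 4 libraries with the highest bulb sum (666 CPM or more, against at most 171 in the other 8) were the 4 highest of the 12 for Calb2, for Reln and for Htr3a, and included 3 of the 4 highest for Nos1. They were the 4 lowest for Sst, and included 3 of the 4 lowest for Pvalb and for Vip. Npy, Cck and Crh shared at most 2 of their highest or lowest 4 with them.

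Compared per length, as CPM per kb of exon, Cck and Sst were the most abundant members in WT, Tia1+/- and PS19 mice and Nos1 was the least abundant in all 4 groups. Cck had 170 ± 70.3 (SD, n = 3) in WT, 139 ± 71.4 in Tia1+/-, 201.5 ± 53.2 in PS19 and 175 ± 11.2 CPM per kb in P301S Tia1+/- mice. Sst had 115 ± 84.5, 164 ± 13.95, 153 ± 13.4 and 87.5 ± 14.2 CPM per kb in the same order. The ranges of Cck and Sst overlapped in WT, Tia1+/- and PS19 mice. Npy followed with group means of 64.1 to 88.7 and Pvalb with 24.0 to 60.9 CPM per kb. Vip ranged from 12.5 to 21.5 and Reln, with the largest exon length of the set, from 5.51 to 14.02 CPM per kb. Crh (5.03 to 8.27), Htr3a (2.11 to 5.21) and Nos1 (1.29 to 2.39 CPM per kb) were the 3 lowest in every group. Calb2 changed its place most, from the sixth of 10 in PS19 at 6.84 ± 1.68 to the second in P301S Tia1+/- mice at 146 ± 10.02 CPM per kb.

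**Figure D2:**
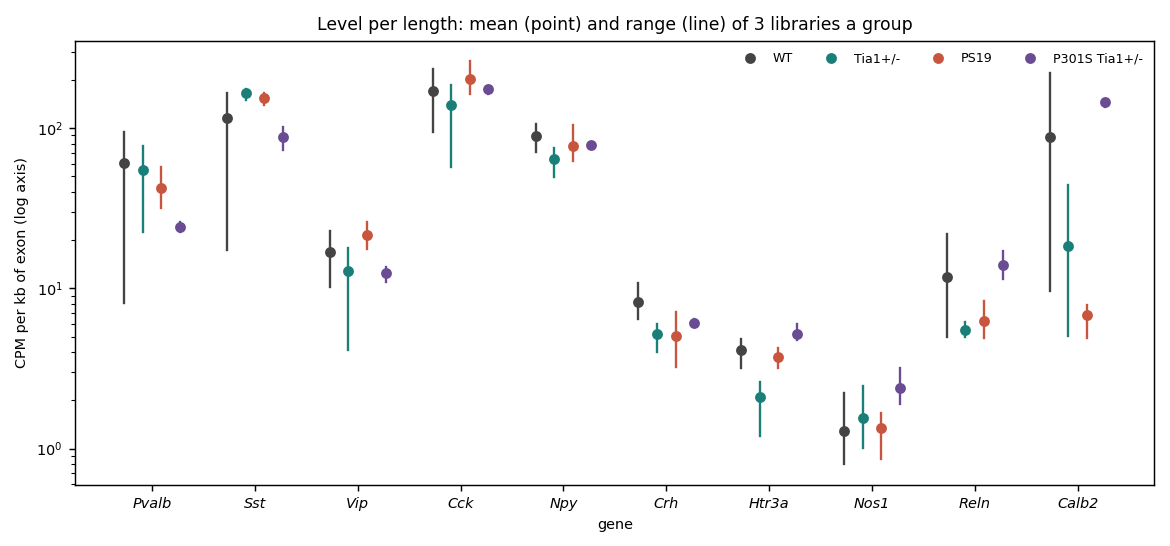
CPM per kb of exon for each member (log axis); points are group means and lines span the lowest to the highest of 3 libraries. Cck and Sst lie near the top in all groups and Nos1 at the bottom, and the Calb2 means run from 6.84 in PS19 to 146 in P301S Tia1+/- mice.

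Pvalb encodes parvalbumin, the calcium buffer of fast-spiking basket and chandelier cells. It had 8.40, 83.4 and 98.3 CPM in WT replicates 1 to 3, and 67.7, 80.5 and 23.3 CPM in Tia1+/- mice. It had 40.4, 33.0 and 59.1 CPM in PS19 mice and 26.9, 23.5 and 24.5 CPM in P301S Tia1+/- mice. The lowest library was WT replicate 1, and apart from it and Tia1+/- replicate 3 every PS19 and P301S Tia1+/- library lay below every WT and Tia1+/- library. Calb2 encodes calretinin, a calcium-binding protein of bipolar interneurons that often hold Vip. It had 385, 61.0 and 16.7 CPM in WT mice, 8.76, 11.04 and 76.6 in Tia1+/- mice, 13.8, 13.4 and 8.55 in PS19 mice and 264, 235 and 266 CPM in P301S Tia1+/- mice. The last group and WT replicate 1 stood far above the others, and PS19 was the group with the lowest mean.

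Sst, the peptide of Martinotti and related dendrite-targeting cells, was alike in 8 of the 12 libraries, at 99.98 CPM or more. It had 12.6, 119.7 and 116 CPM in WT mice, 122, 126 and 107 in Tia1+/- mice and 119, 99.98 and 113 in PS19 mice. The P301S Tia1+/- libraries had 72.8, 64.0 and 52.5 CPM, below all libraries but WT replicate 1. Vip, the peptide of interneuron-selective cells, had 34.6, 58.9 and 77.9 CPM in WT libraries, 56.0, 61.2 and 14.05 in those of Tia1+/-, 71.3, 59.6 and 88.7 in those of PS19 and 46.0, 44.0 and 37.2 CPM in P301S Tia1+/- mice. Its lowest library was Tia1+/- replicate 3, the one with high striatal genes, and its PS19 and WT values overlapped.

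Npy, the peptide of neurogliaform cells and of a group of Sst cells, was the least variable member. Its values were 50.9, 39.9 and 59.8 CPM in WT libraries, 42.6, 38.2 and 27.9 in those of Tia1+/-, 36.5, 35.2 and 59.0 in those of PS19 and 45.7, 42.3 and 44.6 CPM in P301S Tia1+/- mice, and no group was clear of another. Cck, the peptide of a second basket cell class, had 123, 239 and 304 CPM in WT libraries, 227, 243 and 74.2 in those of Tia1+/-, 214, 233 and 342 in those of PS19 and 239, 235 and 212 CPM in P301S Tia1+/- mice. The low values belong to WT replicate 1 and Tia1+/- replicate 3, and the groups overlapped. Crh, corticotropin-releasing hormone, had 14.2, 10.1 and 8.52 CPM in WT libraries, 7.31, 5.26 and 7.86 in those of Tia1+/-, 6.24, 4.24 and 9.46 in those of PS19 and 7.80, 8.46 and 7.97 CPM in P301S Tia1+/- mice. Every Tia1+/- value was below every WT value, while PS19 replicate 3 lay among the WT libraries.

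Reln encodes reelin, a secreted protein that guides neuronal layering and later acts at synapses. It had 521, 195 and 119 CPM in WT libraries, 118, 127 and 147 in those of Tia1+/-, 197, 129.7 and 117 in those of PS19 and 272, 317 and 409 CPM in P301S Tia1+/- mice. The P301S Tia1+/- libraries were above all others but WT replicate 1. Nos1, the neuronal nitric oxide synthase of long-range Sst cells, had 24.7, 9.47 and 8.90 CPM in WT libraries, 11.3, 13.1 and 27.4 in those of Tia1+/-, 17.0, 18.5 and 9.58 in those of PS19 and 23.5, 21.1 and 35.5 CPM in P301S Tia1+/- mice. The P301S Tia1+/- libraries were above all PS19 libraries, and WT replicate 1 and Tia1+/- replicate 3 lay among them. Htr3a, the ion channel receptor for serotonin, was near the low end of the set at 39 to 208 counts. It had 10.1, 6.60 and 9.28 CPM in WT libraries, 5.24, 5.45 and 2.51 in those of Tia1+/-, 6.60, 7.93 and 8.85 in those of PS19 and 10.1, 12.5 and 9.93 CPM in P301S Tia1+/- mice. The Tia1+/- libraries were the 3 lowest of the 12.

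**Figure D3:**
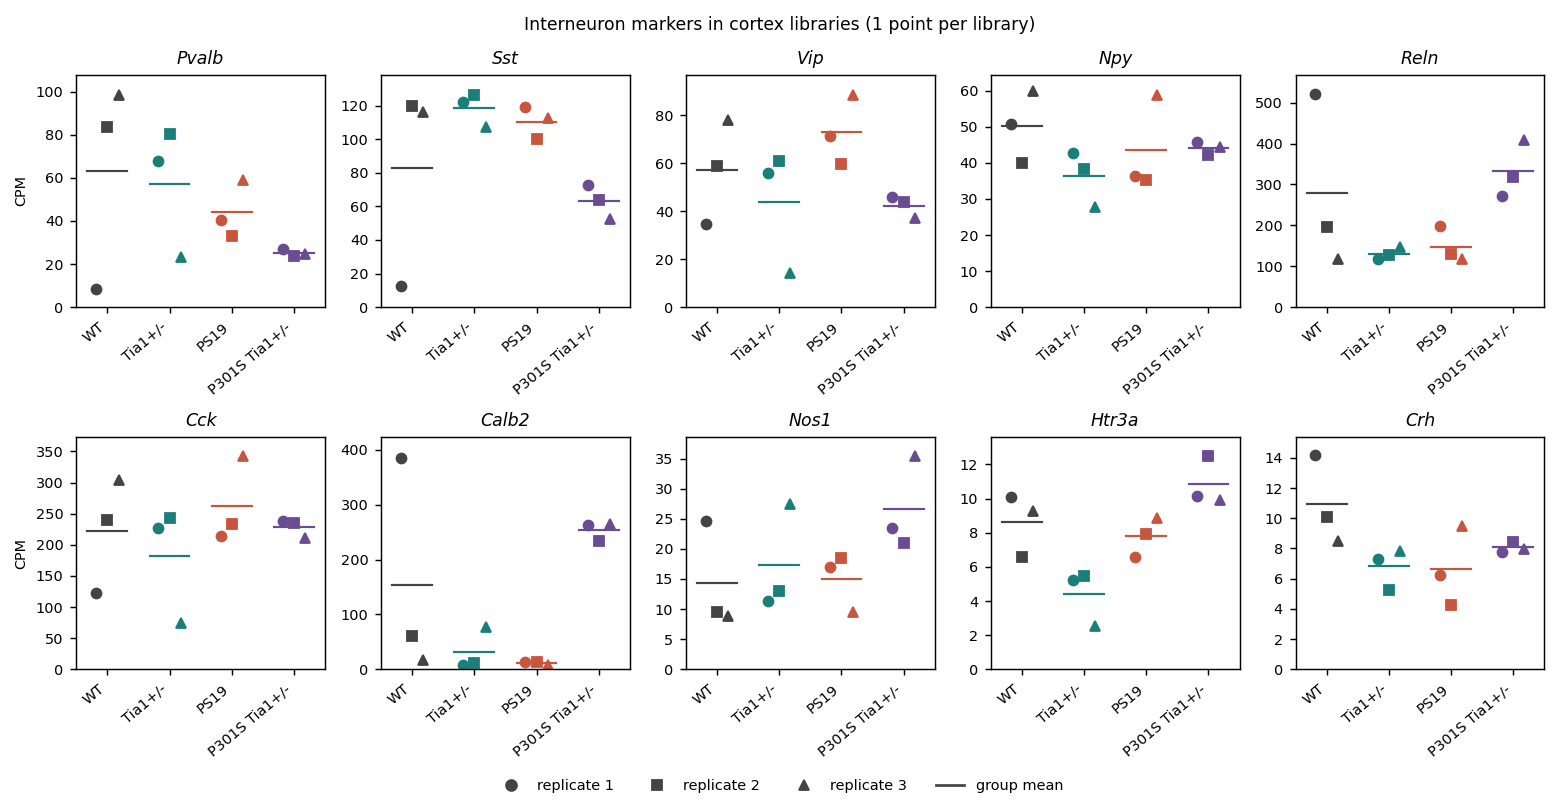
CPM of each member in the 12 libraries (1 point per library, marker by replicate number, bar at the group mean; each panel has its own axis from 0). WT replicate 1 is low for Pvalb and Sst and high for Calb2 and Reln, and the 3 P301S Tia1+/- points lie close together for most members.

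The comparison of PS19 with WT asked how mutant tau went with these markers. Over 12 libraries, 0 of the 10 members passed an adjusted p of 0.05 in edgeR's quasi-likelihood test, where 0% of all 15440 genes did, and 2 had an unadjusted p under 0.05 (16.3% of all genes). DESeq2's Wald test called 1, Calb2. Calb2 had the largest difference, with a log2 fold change of -3.69 (SE 1.09, adjusted p = 0.182 from edgeR), and its groups did not overlap, as in 20.8% of all genes. That value rested on WT replicate 1: without that library it was -1.69. The bulb genes moved with it, since all 9 were lower in every PS19 library than in any WT library, and with their level as a term in the fit the Calb2 difference turned to 1.51. Crh was the other member with an unadjusted p under 0.05, at -0.71 (SE 0.280, adjusted p = 0.257).

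Without WT replicate 1 and Tia1+/- replicate 3, Pvalb passed the test between PS19 and WT, as 1 of 10 members where 0.476% of 15560 genes did. Its mean was 44.2 ± 13.5 CPM (SD, n = 3) in PS19 and 90.9 CPM in the 2 WT libraries that remain, a log2 fold change of -1.03 (SE 0.185, adjusted p = 0.0428 from edgeR). With all 12 libraries, WT replicate 1 and its lowest Pvalb included, the difference was -0.52 (SE 0.664, adjusted p = 0.718). Without WT replicate 1 alone it was -1.03 with an adjusted p of 0.402, so the call needed both libraries to be left out. The bulb level was higher in these 2 WT libraries (171 and 59.5 CPM) than in the PS19 libraries. With the bulb level as a term over all 12 libraries, Pvalb was lower in PS19 by a log2 value of -2.98 (adjusted p = 0.00535), and it was 1 of 5 members called by that fit. The slope of that term rests on few libraries, as given above, and this limits its values and calls in every comparison. Vip (-1.32, adjusted p = 0.0406) and Cck (-1.32, adjusted p = 0.0219) were also lower there, against 0.36 and 0.24 without the term, and Nos1 (1.80, adjusted p = 0.0188) and Calb2 (1.51, adjusted p = 0.0183) were higher. Sst had a log2 fold change of -0.089 (SE 0.119), Vip of 0.10 (SE 0.163), Npy of -0.19 (SE 0.210) and Cck of -0.045 (SE 0.171) in the 10 libraries, none of which passed the test. In RNA of whole tissue, fewer cells of a class and less RNA per cell cannot be told apart.

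The comparison of P301S Tia1+/- with Tia1+/- mice asked the same of mutant tau where Tia1 was reduced. Over 12 libraries, 0 of 10 members passed (0% of all genes with edgeR), and 3 had an unadjusted p under 0.05 (15.6% of all genes). DESeq2 called 1, Htr3a. Reln, Calb2 and Htr3a were higher and Sst was lower in every P301S Tia1+/- library, 4 members without overlap, where 26% of all genes had none (14.9% higher and 11.1% lower). The log2 fold changes were 1.35 (SE 0.437) for Reln, 2.98 (SE 1.04) for Calb2, 1.301 (SE 0.273) for Htr3a and -0.91 (SE 0.550) for Sst, with adjusted p values from 0.175 to 0.442.

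In the 10 libraries, 6 members passed, against 23.4% of all genes, and 7 had an unadjusted p under 0.05 (35.3% of all genes). The libraries of 8 members did not overlap there, as for 54.8% of all genes. Reln (1.42, SE 0.247), Calb2 (4.67, SE 0.430), Nos1 (1.11, SE 0.267) and Htr3a (1.004, SE 0.195) were higher, and Pvalb (-1.58, SE 0.190) and Sst (-0.99, SE 0.119) lower in P301S Tia1+/- mice, on the log2 scale. The bulb genes were higher in all P301S Tia1+/- libraries, by a median log2 value of 6.59 in this fit. Projection neuron genes were lower, by a median of -1.26 with 8 of 8 passing. With the bulb level as a term over 12 libraries, Pvalb turned to 2.48, Calb2 to -1.27, Sst to 1.02, Reln to -0.41 and Nos1 to -1.19, while Htr3a was 1.68 (adjusted p = 0.0518). That fit called 4 members: Pvalb, Calb2 and Vip (2.24, against -0.045 without the term) with a turned sign, and Cck (2.47, against 0.33). A fit of these 6 libraries with the replicate number as a block called Sst (-0.93, adjusted p = 0.0442) and Reln (1.33, adjusted p = 0.0391), and without the block it called the same 2 members. Residual correlations of the same-numbered libraries were weak, at 0.12 to 0.24.

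Between Tia1+/- and WT mice, the comparison of Tia1 genotype without mutant tau, 0 of 10 members passed over 12 libraries, where 0.712% of all genes did, and 4 had an unadjusted p under 0.05 (19.1% of all genes). DESeq2 called 1, Htr3a. Htr3a and Crh were lower in every Tia1+/- library than in any WT library, 2 of 10 members where 20% of all genes had no overlap (9.6% higher and 10.4% lower). Htr3a had 4.40 ± 1.64 CPM (SD, n = 3) against 8.65 ± 1.83 CPM, a log2 fold change of -0.98 (SE 0.275, adjusted p = 0.101 from edgeR), and Crh 6.81 ± 1.37 against 10.9 ± 2.92 CPM, a value of -0.68 (SE 0.280, adjusted p = 0.219). Reln (-1.09, SE 0.435) and Calb2 (-2.26, SE 1.01) were the others, and both were small without WT replicate 1, at -0.25 and -0.24. Calb2 was the 1 member that passed in the 10 libraries (-1.96, SE 0.443, adjusted p = 0.0496; 1.72% of all genes), where the 2 WT libraries had 61.0 and 16.7 CPM. In the same fit 7 of the 9 bulb genes passed, with a median log2 value of -3.74 over the 9. With the bulb level as a term over 12 libraries Calb2 turned to 1.31, and that fit called 5 members, with Pvalb (-2.14), Vip (-1.87) and Cck (-1.65) lower and Calb2 and Nos1 (1.56) higher in Tia1+/- mice.

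P301S Tia1+/- and PS19 mice, both with mutant tau, differed in Tia1. Over 12 libraries 0 of 10 members passed (0.24% of all genes), and 2 had an unadjusted p under 0.05 (19.3% of all genes). DESeq2 called 1, Calb2. The libraries did not overlap for 7 members, 4 higher and 3 lower in P301S Tia1+/- mice, where 38.5% of all genes had no overlap (20.2% higher and 18.2% lower). Calb2 was 254.7 ± 17.5 against 11.9 ± 2.92 CPM (SD, n = 3), a log2 fold change of 4.42 (SE 1.12, adjusted p = 0.105 from edgeR). Reln was 333 ± 69.4 against 148 ± 43.3 CPM, a value of 1.17 (SE 0.435), and Sst 63.1 ± 10.2 against 110.6 ± 9.67 CPM, a value of -0.81 (SE 0.549).

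In the 10 libraries, which hold the same 6 libraries of these groups but a smaller spread, 6 members passed, against 22.9% of all genes. Calb2 (4.40, SE 0.353), Reln (1.14, SE 0.212) and Nos1 (0.81, SE 0.229) were higher and Pvalb (-0.85, SE 0.176), Sst (-0.83, SE 0.109) and Vip (-0.82, SE 0.147) lower in P301S Tia1+/- mice. A fit of these 6 libraries alone called the same 6. The bulb sum was 666 to 812 CPM in the first group and 27.8 to 36.3 CPM in the second, and with the bulb level as a term all 6 changed sign: Calb2 to -1.47, Reln to -0.88, Nos1 to -1.43, Pvalb to 3.32, Sst to 1.56 and Vip to 1.69. The bulb level and the group coincide in these 6 libraries and cannot be told apart there.

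**Figure D4:**
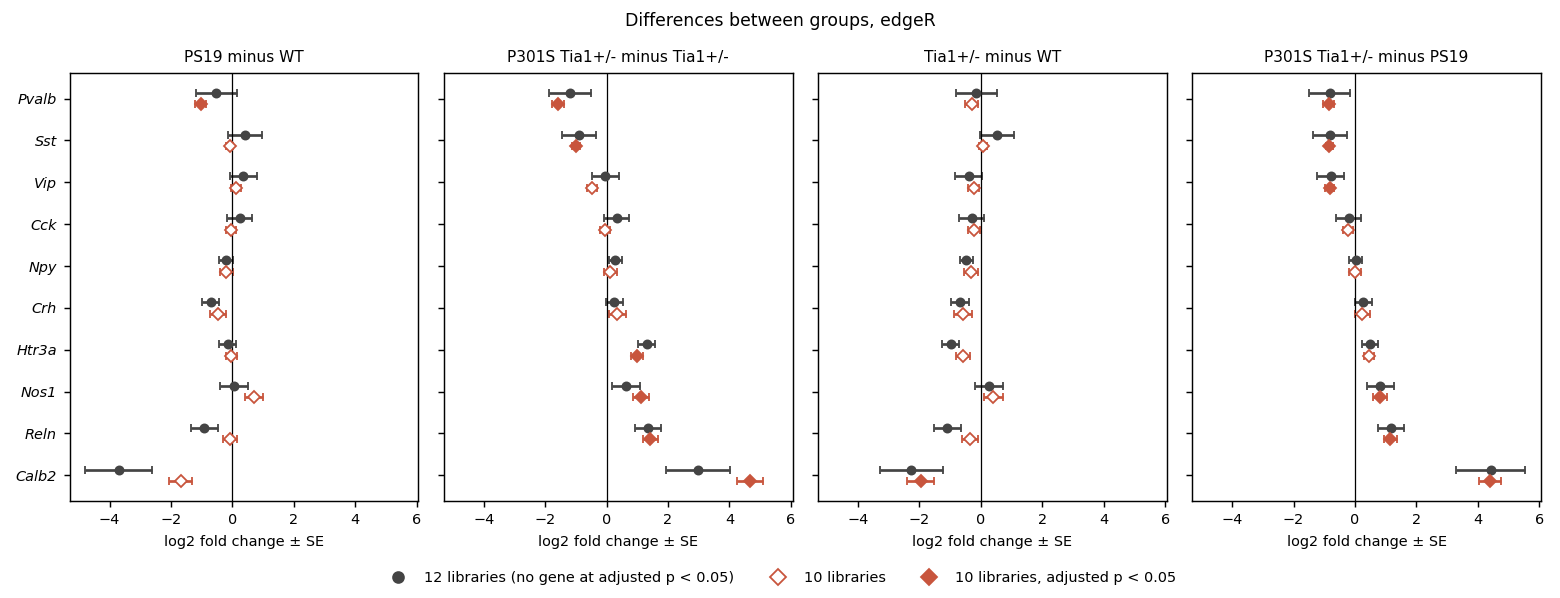
Log2 fold change ± SE of each member in the 4 comparisons, from 12 libraries (dark circles) and from the 10 without WT replicate 1 and Tia1+/- replicate 3 (red diamonds, filled where the adjusted p is under 0.05). No 12-library point passes, and the filled points are 1 in PS19 minus WT (Pvalb), 6 in P301S Tia1+/- minus Tia1+/-, 1 in Tia1+/- minus WT (Calb2) and 6 in P301S Tia1+/- minus PS19.

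Whether the difference between P301S tau and its control changed with Tia1 genotype was tested as the interaction. Over 12 libraries 0 of 10 members passed (0.00648% of all genes with edgeR), and 4 had an unadjusted p under 0.05 (22.9% of all genes), while DESeq2 called 3. The interaction was 6.68 (SE 1.51, adjusted p = 0.0684) for Calb2, 2.26 (SE 0.615, adjusted p = 0.0837) for Reln, 1.45 (SE 0.381, adjusted p = 0.0801) for Htr3a and 0.95 (SE 0.395, adjusted p = 0.186) for Crh on the log2 scale. Those of Pvalb (-0.67, SE 0.941) and Vip (-0.40, SE 0.621) were within their errors. With the bulb level as a term the interaction turned to -2.78 for Calb2, -1.19 for Reln, 5.45 for Pvalb (adjusted p = 0.00624), 3.56 for Vip (adjusted p = 0.0101) and -2.99 for Nos1 (adjusted p = 0.0229). That fit called 5 members, the others being Calb2 and Cck (3.79), and Htr3a kept its sign at 2.15 (adjusted p = 0.124). In the 10 libraries Sst (-0.90, SE 0.170), Reln (1.502, SE 0.337), Calb2 (6.36, SE 0.566) and Htr3a (1.04, SE 0.272) passed, 4 of 10 where 13.5% of all genes did. A test of any difference among the 4 genotypes called 0 of 10 members over 12 libraries (0.395% of all genes), with 3 at an unadjusted p under 0.05 (22.2% of all genes), and DESeq2 called 3. In the 10 libraries it called 7 (29.3% of all genes), the exceptions being Npy, Cck and Crh, and the same number had an unadjusted p under 0.05 (42.1% of all genes).

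The genes that work with the markers were followed as fixed lists. Of the 4 genes of GABA synthesis and transport, 0 passed in any comparison over 12 libraries. Gad1, which makes the bulk of GABA, had 686 ± 464 CPM (SD, n = 3) in WT, 483 ± 278 in Tia1+/-, 318 ± 31.6 in PS19 and 964 ± 96.4 CPM in P301S Tia1+/- mice, with its highest values, 803 to 1222 CPM, in the libraries with high bulb or striatal genes. In the 5 libraries with the highest Gad1, Pvalb was at most 26.9 CPM, while Sst was low in 4 of them and 107 CPM in Tia1+/- replicate 3. The vesicular transporter Slc32a1 had 34.5 ± 6.17 CPM in PS19 and 62.6 ± 2.496 CPM in P301S Tia1+/- mice. In the 10 libraries 3 of the 4 passed between these groups, against 22.9% of all genes, with log2 fold changes of 1.58 for Gad1 and 0.84 for Slc32a1.

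Of 15 interneuron transcription factors, 0 passed over 12 libraries in any comparison, and 12 of 15 did in the 10 libraries between P301S Tia1+/- and PS19 mice, where 22.9% of all genes did. Dlx1 and Dlx2, which specify forebrain GABA neurons, were higher and Lhx6, the factor of the Pvalb and Sst lineages, was lower in this fit. Dlx1 had 7.87 ± 0.938 CPM in PS19 and 45.3 ± 5.56 CPM in P301S Tia1+/- mice. Lhx6 had 14.6 ± 0.658 CPM in PS19 and 5.66 ± 0.403 CPM in P301S Tia1+/- mice, and 1.68 CPM in its lowest WT library. Sp8, a factor of caudal ganglionic eminence and bulb interneurons, ran from 2.34 ± 1.46 CPM in PS19 to 59.7 ± 6.56 CPM in P301S Tia1+/- mice. The direction of Lhx6 was thus that of Pvalb and Sst, and that of Dlx1 and Sp8 was that of Calb2 and Reln. Over 12 libraries 7 of the 15 factors were higher in P301S Tia1+/- than in PS19 mice, and 8 were lower. Prox1 of the same list was lower, at 5.56 to 7.205 CPM in PS19 and 3.14 to 4.34 CPM in P301S Tia1+/- mice. Whether the direction of a factor went with its lineage was not tested.

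Of the 8 companions of parvalbumin cells, 1 passed over 12 libraries, between Tia1+/- and WT, where 0.712% of all genes did. Hapln1, a link protein of the perineuronal nets around these cells, was lower in Tia1+/- than in WT mice. It had 33.1, 29.4 and 33.6 CPM in WT and 21.9, 19.4 and 22.6 CPM in Tia1+/- mice, a log2 fold change of -0.59 (SE 0.0920, adjusted p = 0.0346 from edgeR), and -0.62 (adjusted p = 0.0287) in the 10 libraries. The groups did not overlap. WT replicate 1 lay between the other WT values, and Tia1+/- replicate 3 was the highest of its group at 22.6 CPM. The sex-linked genes differ between the same groups, and their part in this result cannot be told apart from that of the genotype. PS19 and P301S Tia1+/- mice, which also differ in Tia1 genotype and sex-linked genes, overlapped in Hapln1. It had 26.4, 27.8 and 27.9 CPM in PS19 and 26.8, 27.5 and 24.7 CPM in P301S Tia1+/- mice.

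Kcnab3, a potassium channel subunit of fast-spiking cells, had 70.8, 66.1 and 78.9 CPM in WT and 30.4, 18.97 and 39.7 CPM in PS19 mice, without overlap. Its log2 fold change was -1.27 with 12 libraries (SE 0.230, adjusted p = 0.133) and -1.27 in the 10 (adjusted p = 0.0359). Unlike Pvalb, Kcnab3 in WT replicate 1 lay between the other WT values. It was 50.2, 54.5 and 36.1 CPM in Tia1+/- mice, also below every WT library (log2 fold change -0.61, adjusted p = 0.177), and 69.2, 58.6 and 66.5 CPM in P301S Tia1+/- mice, which overlapped WT. The bulb sum was 666 to 812 CPM in the P301S Tia1+/- libraries, 1060 CPM in WT replicate 1 and 27.8 to 36.3 CPM in PS19. Between P301S Tia1+/- and PS19 mice, a difference by Tia1 genotype and one by bulb level cannot be told apart. Syt2, the calcium sensor at Pvalb cell terminals, had 2.56, 33.7 and 52.9 CPM in WT libraries, 42.0, 38.0 and 32.3 in those of Tia1+/-, 18.6, 8.49 and 36.3 in those of PS19 and 7.36, 10.8 and 9.93 CPM in P301S Tia1+/- mice. Like Pvalb, Syt2 was lowest in WT replicate 1. Of the 8 companions, 4 were lower in every PS19 than in any WT library and 0 were higher, where 11% and 9.75% of all genes were.

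**Figure D5:**
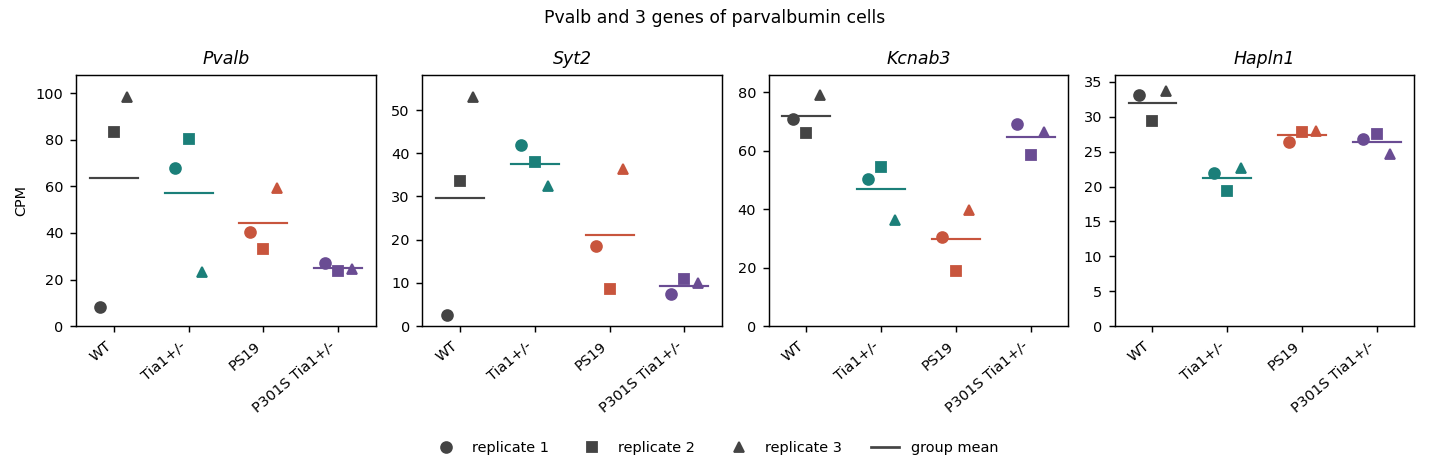
CPM of Pvalb and of 3 companion genes in the 12 libraries (1 point per library, bar at the group mean, axes from 0). Kcnab3 is lower in PS19 (18.97 to 39.7 CPM) than in WT (66.1 to 78.9 CPM) in every library, Hapln1 is lowest in Tia1+/- mice, and Syt2 shares with Pvalb the low WT replicate 1.

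The 8 companions of Sst cells had 0 genes that passed over 12 libraries. All 8 had a log2 fold change below 0 between P301S Tia1+/- and Tia1+/- mice, with a median of -0.19 against 0.0064 over all genes. Of all genes, 51.1% were above 0 there. The groups of 1 of the 8 did not overlap, where 26% of all genes had no overlap and 11.1% were lower in every library. The count rests in part on Tia1+/- replicate 3, at 19.3 CPM for Elfn1 and 82.9 CPM for Grin3a. In the other Tia1+/- libraries Elfn1 had 12.9 and 10.1 CPM and Grin3a 53.5 and 49.2 CPM. Their P301S Tia1+/- libraries had 11.7 to 13.7 and 48.6 to 62.7 CPM. Pdyn, the prodynorphin gene, had 22.7 to 27.9 CPM in PS19, 9.48 to 12.4 CPM in P301S Tia1+/- mice and 126 CPM in Tia1+/- replicate 3, the library with high striatal genes. Of the companions of Vip, Htr3a and neurogliaform cells, 0 of 8 tested passed. Ndnf, a secreted factor of layer 1 cells, had 11.7 ± 5.11 CPM in PS19 and 70.5 ± 6.62 CPM in P301S Tia1+/- mice (log2 fold change 2.61, adjusted p = 0.168), the pattern of Calb2. Ndnf was among the 3 of 8 that were higher there, and 5 were lower, with a median of -0.033 against 0.0097 over all genes. Lamp5 of the same list had 153 ± 30.1 CPM in PS19 and 91.6 ± 6.25 CPM in P301S Tia1+/- mice. Of 18 tested receptors and partners of the peptides, reelin and nitric oxide, 0 passed over 12 libraries. Lrp8, a receptor of reelin, had 62.5 ± 3.73 CPM in PS19 and 90.9 ± 4.27 CPM in P301S Tia1+/- mice (0.54, SE 0.152, adjusted p = 0.124). Vipr2, a receptor of Vip, had 0.830 ± 0.182 CPM in PS19 and 29.7 ± 6.24 CPM in P301S Tia1+/- mice (5.17, adjusted p = 0.111), and up to 26.2 CPM in WT. Both were among the 4 of these 18 that were higher in P301S Tia1+/- than in PS19 mice, and 14 were lower. The median log2 fold change of the 18 was -0.24, where 51.5% of all genes were above 0. Vipr1, another receptor of Vip, had 30.4 ± 6.70 CPM in PS19 and 18.8 ± 3.57 CPM in P301S Tia1+/- mice.

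Among all other genes of at least 1 CPM, the likest patterns over the 12 libraries, by Pearson's r of log2 CPM and given as a description, were those of Rspo1 (0.99) and Flywch1 (0.98) for Pvalb, and of AI848285 (0.99) and Map3k1 (0.99) for Calb2. For Sst they were Cdh7 and Scn2b (both 0.98), for Reln Fmo1 (0.98) and Casp2 (0.97), and for Vip Trpc6 and Tbcb (both 0.96). For Cck they were 1110046J04Rik (0.97) and C130074G19Rik (0.96), and for Nos1 Myt1 (0.97) and Abcd4 (0.96). Mapkapk2 (0.95) and Aen (0.89) were nearest to Htr3a, Maml3 and Suv420h1 (both 0.90) to Crh, and Rcc1 (0.89) and Uspl1 (0.88) to Npy. The libraries share the differences in region described above, and r over them takes these in. Among the members, Calb2 and Reln had r = 0.90, Vip and Cck 0.92 and Pvalb and Sst 0.84, whereas Pvalb and Nos1 had -0.84.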

How the data were processed

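RNA from mouse cortex was sequenced as 12 libraries. Per the submitters' processing notes the authors used TopHat2 2.0.6 and featureCounts with mm10, from a stranded total RNA kit. The annotation, the strand setting and the handling of multi-mapped reads in counting are not given in the sources used here. The authors deposited raw read counts for each of 24062 symbols, of which 3287 were at 0 in every library. Counts were scaled by TMM, filtered with filterByExpr and fitted over all 12 libraries with a mean per group by the quasi-likelihood test of edgeR 4.0.16 in R 4.3.3, with Benjamini-Hochberg adjustment over 15440 genes and a threshold of 0.05. The fitting was tested on simulated counts. DESeq2 1.42.0 was an alternative. CPM divide by the scaled sums of the tested genes. log2 CPM used a prior count of 2. Exon lengths and positions came from GENCODE M21 on GRCm38.

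The members and the lists were chosen with earlier results of these data known. Named are all 10 members, listed genes past the threshold or with the 2 smallest p of a list, and the 2 genes of likest pattern per member. Prox1, Lamp5, Vipr1, Elfn1 and Grin3a are named as limits to a statement on their list. The fit of 10 libraries and the block in 6 libraries were chosen after seeing the data. The labels do not say that the 3 libraries of a group came from 3 mice, so p-values measure the spread between libraries. An exact permutation test of 3 against 3 cannot give a 2-sided p under 0.10. The comparisons share groups and are not independent. Replicate numbers were checked for pairing: 7 of 18 same-numbered pairs of libraries had residual correlations above 0.1 (range -0.54 to 0.35), and only Tia1+/- with P301S Tia1+/- had all 3. No batch is given for the libraries.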

Additional observations from a re-analysis of the deposited data

How the results depend on the processing

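With edgeR over all 12 libraries no member passed in any comparison, and this held under the size factors of DESeq2, no filter on low counts, at least 10 counts in every library and the replicate block. Of 50 fold changes of members, 11 kept their sign in every alternative and 39 did not in at least 1. DESeq2 called 1, 1, 1, 1, 3 and 3 members (in the order PS19 minus WT, P301S Tia1+/- minus Tia1+/-, Tia1+/- minus WT, P301S Tia1+/- minus PS19, interaction, any group) and 445, 404, 978, 841, 1245 and 1854 genes. It used the Wald test, except for any group, where it used the likelihood ratio test. With the bulb level as a term the members were 5, 4, 5, 4, 5 and 5 and the genes 1052, 1381, 1560, 1281, 1468 and 2256. In the 10 libraries (without WT replicate 1 and Tia1+/- replicate 3, chosen after seeing the data) the members were 1, 6, 1, 6, 4 and 7 and the genes 74, 3646, 267, 3569, 2106 and 4566. With the striatal level as a term the last 3 had 2, 1 and 1 members, and the genes from the second on were 3, 18, 503, 987 and 282. Fits of only the 6 libraries compared called 2 members and 334 genes for P301S Tia1+/- minus Tia1+/-, 6 genes for Tia1+/- minus WT, and 6 members and 3025 genes for P301S Tia1+/- minus PS19. Without a filter, Tia1+/- minus WT had 73 genes and the interaction 5; with at least 10 counts, P301S Tia1+/- minus PS19 had 15 and the interaction 0. The cause of these changes was not tested.

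The replicate block over 12 libraries left 0 members, and 9 genes for Tia1+/- minus WT, 7 for P301S Tia1+/- minus PS19, 0 for the interaction and 6 for any group. In the 6 libraries of Tia1+/- and P301S Tia1+/- the replicate block called 2 members and 145 genes. Their same-numbered libraries had weak residual correlations (0.12 to 0.24), and no label gives a pairing.

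With each library left out in turn, members called ran from 0 to 2 for the interaction (2 without WT replicate 3, 1 without WT replicate 1 or Tia1+/- replicate 3), from 0 to 3 for any group (3 without WT replicate 1), and were 0 elsewhere. Genes ran from 0 to 1 for PS19 minus WT, from 8 to 497 for Tia1+/- minus WT, from 6 to 12 for P301S Tia1+/- minus PS19, from 0 to 1035 for the interaction and from 9 to 1398 for any group.

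With the bulb level as a term, whose slope rests mainly on the WT and Tia1+/- libraries, the log2 fold change changed sign for these members. In PS19 minus WT it turned for Sst to -0.96, Vip to -1.32, Reln to 0.78, Cck to -1.32 and Calb2 to 1.51. In P301S Tia1+/- minus Tia1+/- it turned for Pvalb to 2.48, Sst to 1.02, Vip to 2.24, Reln to -0.41, Calb2 to -1.27, Nos1 to -1.19 and Crh to -0.36. In Tia1+/- minus WT it turned for Sst to -0.43, Reln to 0.30 and Calb2 to 1.31. In P301S Tia1+/- minus PS19 it turned for Pvalb to 3.32, Sst to 1.56, Vip to 1.69, Reln to -0.88, Cck to 2.14, Calb2 to -1.47, Nos1 to -1.43 and Crh to -0.46. In the interaction it turned for Pvalb to 5.45, Sst to 1.99, Vip to 3.56, Reln to -1.19, Calb2 to -2.78, Nos1 to -2.99 and Crh to -0.20. With the longest transcript in place of all exons, Cck led Sst also in Tia1+/- mice (227 against 164 CPM per kb) and Nos1 stayed lowest. The lowest member count was 39, so depth did not limit detection of any member.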

Other observations

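The activity-induced genes, which many neurons switch on when they fire, were 9 in the list. Fosb, an immediate early transcription factor, was lower in Tia1+/- than in WT mice (11.05 ± 2.67 against 47.9 ± 33.0 CPM, SD, n = 3; log2 fold change -2.12, SE 0.405, adjusted p = 0.0446 from edgeR; -1.26 in the 10 libraries, adjusted p = 0.0265). It was the 1 gene of the 9 that passed, where 0.712% of all genes did. Its WT libraries had 85.6, 34.0 and 24.1 CPM. With mutant tau the direction by Tia1 genotype was the opposite, at 22.6, 19.2 and 24.7 CPM in P301S Tia1+/- against 11.1, 16.8 and 15.5 CPM in PS19 mice. Bdnf, a neurotrophin made by pyramidal cells, was 115 ± 11.5 CPM in WT mice and 48.2 ± 21.02 CPM in Tia1+/- mice, against 65.6 ± 13.0 CPM in PS19 and 33.8 ± 5.502 CPM in P301S Tia1+/- mice. Its difference between Tia1+/- and WT was -1.25 (SE 0.285, adjusted p = 0.067), and -0.88 (adjusted p = 0.0422) in the 10 libraries.

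The 5 oligodendrocyte genes, the myelin-forming class, all had a log2 fold change above 0 between Tia1+/- and WT, with a median of 0.95 and a smallest adjusted p of 0.0678. Their values were 0.99 for Mog and 0.95 for Mag, and in the 10 libraries 1 of the 5, Mog, passed (0.79, adjusted p = 0.0325), where 1.72% of all genes did. Between PS19 and WT all 5 were also above 0, with a median of 0.54, as were 49.0% of all genes. With mutant tau the direction by Tia1 genotype was the opposite: all 5 were below 0 between P301S Tia1+/- and PS19, with a median of -0.19, where 51.5% of all genes were above 0. Of 5 microglial genes, 4 were higher in every PS19 than in any WT library, as were 9.75% of all genes, with a median of 0.50, and 0 passed the test.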
